A study of Mus musculus with 4 samples.

Results

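The Rab GTPases and the exocyst genes were followed in RNA sequencing of mouse female germline stem cells (FGSCs) after knockdown of *Nat10*. Members were the protein-coding genes whose symbol is Rab followed by a number, with or without a suffix letter, or Exoc followed by a number and any suffix. Genes with longer Rab symbols, such as *Rab3il1*, were not members. There were 71 members, 59 Rab genes and 12 Exoc genes, of 22040 protein-coding genes and 53465 genes in the deposited table. The cells expressed either a control hairpin (shNC) or a hairpin directed at *Nat10* (shNAT10), the gene of the only known writer of N4-acetylcytidine (ac4C), a modified base of RNA. These shRNAs were delivered by lentivirus, and infected cells were selected with puromycin or blasticidin, so the shNC cells had also been infected. Each group had 2 libraries (shNC-1, shNC-2, shNAT10-1 and shNAT10-2), which the study counts as biological replicates. The labels give ovary as the tissue and FGSCs as the cell line, but no age, strain or separate culture, so the p-values measure the spread between these libraries alone.

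Rab proteins are small GTPases that sit on the membranes of distinct organelles. Each switches between a GTP-bound form, made by guanine nucleotide exchange factors (GEFs), and a GDP-bound form, made by GTPase-activating proteins (GAPs), and in the GTP-bound form it recruits effectors that move, tether or dock vesicles. The exocyst is a tethering complex that holds secretory vesicles at the plasma membrane until SNARE proteins fuse them, and several Rabs and Ral GTPases act on it. In germ cells, as in other cells, these proteins carry receptors and adhesion molecules to and from the cell surface.

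Levels were FPKM (fragments scaled to exon length and sequencing depth) as deposited, and fragments recovered from them totalled 11057922 to 14902438 per library. *Nat10* itself was at 7.79 and 5.42 FPKM in shNC and at 2.95 and 3.04 FPKM in shNAT10, so both knockdown libraries lay below both controls. The labelled cell type was checked against its markers: *Dazl*, *Pou5f1*, *Dppa3* and *Tfap2c* were listed at 0 in all 4 libraries, *Ddx4* was at 0.0529 FPKM in shNAT10-1 and at 0 in the others, and of 8 germline markers *Ifitm3* alone exceeded a mean of 1 FPKM. *Ifitm3* was at 9.29 and 22.2 FPKM in shNC and at 27.1 and 33.6 FPKM in shNAT10 (1.06 on the log2 scale), not called by limma and with an adjusted p of 0.00363 by limma-voom. All 6 pan-leukocyte markers exceeded a mean of 1 FPKM, with summed levels of 448 and 499 FPKM in shNC and at 367 and 390 FPKM in shNAT10, and 3 of them (*Cd53*, *Laptm5* and *Lcp1*) were called lower. Of 10 mast cell markers, 4 exceeded a mean of 1 FPKM and 3 (*Fcer1a*, *Tpsb2* and *Mrgprb2*) were at 0, with sums of 313 to 323 FPKM and with *Kit* and *Gata2* called lower and *Ms4a2* called higher. Fibroblast marker sums were 51.7 and 44.8 FPKM in shNC and at 60.7 and 51.4 FPKM in shNAT10, with *Lum* at 0 and 2 of the 5 tested markers called higher, *Pdgfra* (0.83) and *Col3a1* (0.98), and granulosa cell sums did not exceed 0.485 FPKM, with *Foxl2* and *Fshr* at 0. Several of the genes described here act in secretory granules of blood cells, and the part of these marker differences in the results was not tested. In bulk RNA, fewer cells of a type and less RNA per cell cannot be told apart.

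Most of the family was expressed. By mean FPKM over the 4 libraries, 20 members were at 10 or more, 31 between 1 and 10, 9 between 0.1 and 1 and 11 under 0.1. The 10 highest were *Rab5c* (mean 50.2 FPKM), *Rab7* (47.8), *Rab1b* (42.8), *Rab18* (39.2), *Rab2a* (39.2), *Rab10* (34.98), *Rab38* (33.3), *Rab27b* (26.3), *Rab6a* (25.0) and *Rab31* (21.6). Their order is loose, because the range of each over the 4 libraries overlapped that of the next in the order. *Exoc6*, a subunit that receives Rab11-marked vesicles, led the exocyst genes at 14.2 FPKM, with 12.4 to 15.6 FPKM over the libraries. The 11 members under 0.1 were not tested: *Rab3c*, *Rab9b*, *Rab15*, *Rab17*, *Rab25*, *Rab33a*, *Rab36*, *Rab39*, *Rab40b*, *Rab42* and *Exoc3l2*. Among these *Rab42* and *Exoc3l2* were listed at 0 in all 4 libraries, and none of the 11 had more than 27 fragments in total. The summed FPKM of the Rab genes hardly moved, at 578 and 596 in shNC and at 591 and 574 in shNAT10, and that of the Exoc genes was 57.2 and 58.1 in shNC and 61.0 and 59.6 in shNAT10.

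To ask which of the genes responded to the loss of *Nat10*, shNAT10 was compared with shNC by limma on log2(FPKM + 0.1) over 20116 genes, and a gene was called when its fold change exceeded 1.2 and its unadjusted p was no more than 0.05. Of the 60 members tested, 8 were higher in shNAT10 (*Rab7b*, *Rab29*, *Exoc3l4*, *Rab34*, *Rab20*, *Exoc4*, *Rab21* and *Rab5c*), 5 were lower (*Rab8b*, *Rab5a*, *Rab22a*, *Rab10* and *Rab6a*) and 47 were not called. The share called, 21.7%, stood beside 17.9% of all protein-coding genes tested and 16.2% of all genes. The share higher, 13.3%, stood beside 9.48% of protein-coding genes, and the share lower, 8.33%, beside 8.47%. The median log2 fold change of the members was 0.03, and that of all protein-coding genes 0.01. With p-values adjusted over the 20116 genes (Benjamini-Hochberg), 0 members had an adjusted p under 0.05 by limma (0.389% of protein-coding genes had), although 13 had an unadjusted p under 0.05. By limma-voom on the recovered fragments, 7 members had an adjusted p under 0.05, the higher *Exoc4*, *Rab34*, *Exoc3l4* and *Rab7b* and the lower *Rab8b*, *Rab5a* and *Rab10*, beside 11.1% of protein-coding genes, 6.03% higher and 5.09% lower. By the fold and p limits of the main test, limma-voom called 19 members, beside 25.2% of protein-coding genes.

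The calls rested unequally on single libraries. When either shNAT10 library was left out, fewer of all genes tested were also called, in both directions. This applies to every such count given below. Without shNC-1, 9 of the 13 calls remained, and without shNC-2 also 9. Without shNAT10-1, 4 remained (*Rab8b*, *Rab10*, *Rab6a* and *Exoc4*), and without shNAT10-2, 3 remained (*Rab8b*, *Rab10* and *Exoc4*), the lone shNAT10 library being taken to vary like the shNC libraries. Without limma's mean-variance trend, *Rab10*, *Rab21*, *Rab22a*, *Rab29*, *Rab5a*, *Rab5c* and *Rab6a* lost their calls and 6 of the 13 remained. Both shNAT10 libraries lay above both shNC libraries for 17 members and below them for 18, with 25 overlapping, beside 27.7% of protein-coding genes above and 27.0% below. For a gene whose groups do not overlap, an exact permutation test of 2 libraries against 2 gives p = 0.3333, the smallest it can give.

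**Figure D1:**
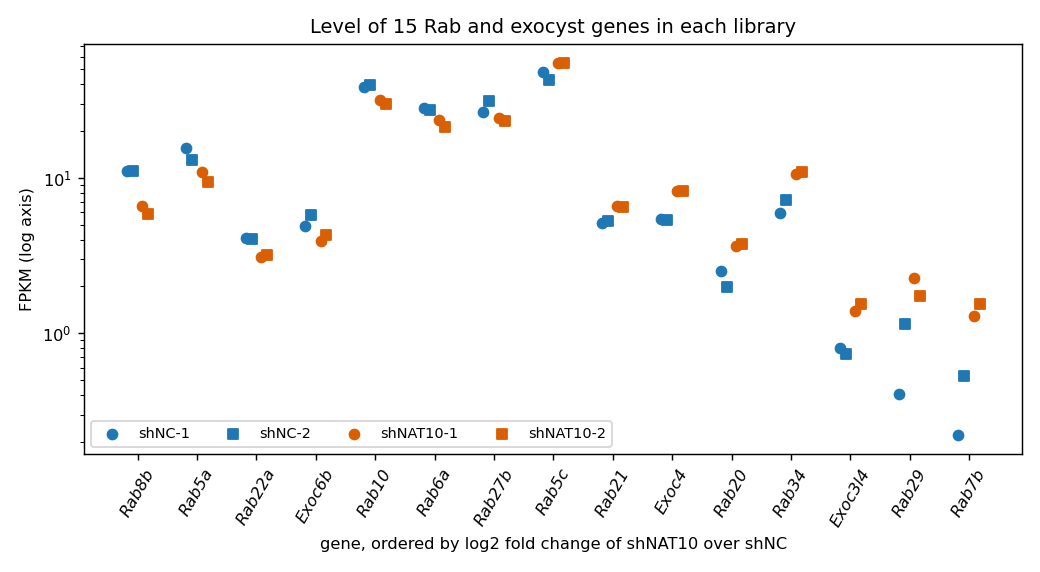
FPKM (log axis) of the 13 called members and of *Rab27b* and *Exoc6b* in each library, with shNC in blue and shNAT10 in orange, circles for the first and squares for the second library, ordered by log2 fold change. The groups do not overlap for any of the genes shown, and the spread within shNC is widest for *Rab29* (0.406 and 1.15 FPKM) and *Rab7b* (0.221 and 0.528 FPKM).

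The early endosome Rabs, which sort freshly internalised cargo, held calls in both directions. Of 9 members, all tested, 3 were higher (33.3%, beside 9.48% of protein-coding genes) and 2 lower (22.2%, beside 8.47%), counts too small to read further, and the median log2 fold change was 0.18. *Rab5a*, a master regulator of early endosome fusion on chromosome 17, was at 15.5 and 13.0 FPKM in shNC and at 10.9 and 9.35 FPKM in shNAT10. Both knockdown values lay below both controls, and *Rab5a* fell by 0.49 on the log2 scale (standard error 0.14; p = 0.0203, exact permutation p = 0.3333, adjusted p = 0.218 by limma; adjusted p = 0.0137 by limma-voom). The call was lost without shNC-1 (log2 fold change -0.36), shNAT10-1 (-0.60) or shNAT10-2 (-0.38). *Rab5c*, its paralog and the most abundant member, went the other way, from 47.8 and 42.8 FPKM to 55.1 and 55.1 FPKM. The shNAT10 libraries agreed closely with each other, and the log2 fold change was 0.28 (standard error 0.09; adjusted p = 0.250 by limma), a call lost without shNC-2 (0.20) or without either shNAT10 library (0.28 each). *Rab5b*, the remaining paralog, ranged from 11.6 to 14.3 FPKM with overlapping groups and was not called (-0.02).

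Within the Rab5 set the make-up therefore shifted while the sum did not separate the groups. *Rab5a* made up 19.9% and 19.3% of the summed Rab5 FPKM in shNC and 13.8% and 12.2% in shNAT10. The *Rab5c* to *Rab5a* ratio was 3.09 and 3.29 in shNC and 5.06 and 5.89 in shNAT10 (two-sided exact permutation p = 0.3333, the smallest possible). The sum of the paralogs was 77.6 and 67.3 FPKM in shNC and at 78.9 and 76.8 FPKM in shNAT10, with the groups overlapping.

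The stretches before the starts of *Rab5a* and *Rab5c* are shown because these paralogs were called in opposite directions (RefSeq, GRCm38.p6, 250 bases up to the start, 5′ to 3′ on the gene's strand). Capitals mark the motifs searched on both strands, the E-box CACGTG, the cAMP response element TGACGTCA, the GC box GGGCGG, the CCAAT box and the TATA box TATAAA.
Rab5a, chr17:53478984-53479233, plus strand: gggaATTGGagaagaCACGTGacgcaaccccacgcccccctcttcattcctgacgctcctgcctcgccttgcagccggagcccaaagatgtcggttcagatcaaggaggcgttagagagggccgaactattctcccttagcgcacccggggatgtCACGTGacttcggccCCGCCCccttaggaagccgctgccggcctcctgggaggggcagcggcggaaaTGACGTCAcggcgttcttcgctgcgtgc
Rab5c, chr11:100738216-100738465, minus strand: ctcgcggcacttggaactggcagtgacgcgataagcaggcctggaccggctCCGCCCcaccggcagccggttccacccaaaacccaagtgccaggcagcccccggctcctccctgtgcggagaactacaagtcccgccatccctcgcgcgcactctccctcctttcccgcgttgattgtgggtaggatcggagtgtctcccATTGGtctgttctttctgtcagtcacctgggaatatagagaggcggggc
The *Rab5a* stretch held 2 E-boxes, 1 cAMP response element, 1 GC box and 1 CCAAT box, and the *Rab5c* stretch held 1 GC box and 1 CCAAT box. Among the promoters of 9915 protein-coding genes tested, 8.21% held an E-box and 2.70% a cAMP response element. An E-box stood in 8.16% of the promoters of tested members. It stood in 2 of 7 members called higher (*Rab20* and *Rab21*) and in 1 of 5 called lower (*Rab5a*). A match of letters is a description and not a bound site.

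The other early endosome calls were at lower levels. *Rab22a*, which sorts cargo from early endosomes into recycling routes, was at 4.12 and 4.02 FPKM in shNC and at 3.08 and 3.19 FPKM in shNAT10 (-0.37 on the log2 scale, standard error 0.12; adjusted p = 0.266 by limma). Replicates differed little within either group, yet the call was lost when any library was left out, with values of -0.39 to -0.34. The microRNA gene *Mir6340*, called lower (-0.77), lies opposite 1.65% of its exon length. Its paralog *Rab31* lay above its controls in both knockdown libraries without being called (19.2 and 21.3 against 23.3 and 22.5 FPKM; 0.18), and the *Rab31* to *Rab22a* ratio was 4.66 and 5.31 in shNC and 7.56 and 7.06 in shNAT10 (exact permutation p = 0.3333). *Rab21*, which acts in the endocytosis of integrins, was at 5.09 and 5.24 FPKM in shNC and at 6.63 and 6.48 FPKM in shNAT10 (0.34, standard error 0.11; adjusted p = 0.245 by limma). That call was lost without shNAT10-1 (0.32) or shNAT10-2 (0.35). *Rab20*, known from the maturation of phagosomes, was at 2.51 and 2.00 FPKM in shNC and at 3.66 and 3.75 FPKM in shNAT10 (0.70, standard error 0.17; adjusted p = 0.175 by limma), and was no longer called without shNAT10-1 (0.72) or shNAT10-2 (0.69). Of its exon length, 25.6% lies in exons of *E230013L22Rik* on the opposite strand, which was itself called higher (0.71), and without a stated use of strand their fragments cannot be told apart. The remaining members were not called, among them *Rab4a* (-0.50), which serves rapid recycling. *Rab4b* was at 0.0404 to 0.331 FPKM and shares 65.0% of its exon length with *Gm21983*.

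Among the Rabs of recycling and of transport to the cell surface, 8 of 11 members were tested. By limma 2 were lower (25% of those tested, beside 8.47% of protein-coding genes) and 6 were not called, with a median log2 fold change of -0.03. Higher were 0 by limma (beside 9.48%) and 0 by limma-voom (beside 1701 of 12828 genes). *Rab8b*, which with *Rab8a* carries cargo from the Golgi and recycling endosomes to the plasma membrane and the cilium, showed the largest fall among called members. It was at 11.01 and 11.11 FPKM in shNC and at 6.58 and 5.82 FPKM in shNAT10. The 2 controls were nearly equal and both knockdown libraries were well below them, a fall of 43.6% (log2 fold change -0.83, standard error 0.11; p = 0.00104, exact permutation p = 0.3333, adjusted p = 0.0813 by limma; adjusted p = 9.45e-05 by limma-voom). *Rab8b* was called under each of the 14 alternatives run, and its value after removal of any library stayed between -0.92 and -0.74. *Rab8a* overlapped between the groups, at 13.5 and 14.3 FPKM in shNC and at 13.8 and 14.4 FPKM in shNAT10 (0.02, 95% interval -0.22 to 0.27). *Rab8b* therefore made up 44.9% and 43.7% of the summed Rab8 FPKM in shNC and 32.3% and 28.7% in shNAT10, and the *Rab8a* to *Rab8b* ratio went from 1.23 and 1.29 to 2.10 and 2.48 (exact permutation p = 0.3333). Unlike the Rab5 sum, the Rab8 sum was below its controls, with 24.5 and 25.4 FPKM in shNC and at 20.4 and 20.3 FPKM in shNAT10.

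*Rab10*, which drives delivery of transporters such as GLUT4 to the cell surface, was at 38.7 and 39.8 FPKM in shNC and at 31.5 and 29.9 FPKM in shNAT10. The drop exceeded the spread within both groups (-0.35, standard error 0.08; p = 0.00932, exact permutation p = 0.3333, adjusted p = 0.167 by limma; adjusted p = 0.0398 by limma-voom), and leaving out any library kept the call, with values of -0.39 to -0.31, whereas a fit without the mean-variance trend ended it. Of its exon length 4.07% is shared with the antisense gene *Rab10os*, which was also called lower (-0.44). *Rab35*, which recycles cargo from endosomes to the surface, lay below its controls in both knockdown libraries (13.5 and 10.6 against 9.18 and 9.34 FPKM; -0.37) without being called (adjusted p = 0.316 by limma). *Rab11a*, *Rab11b*, *Rab13* and *Rab14* overlapped between the groups.

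**Figure D2:**
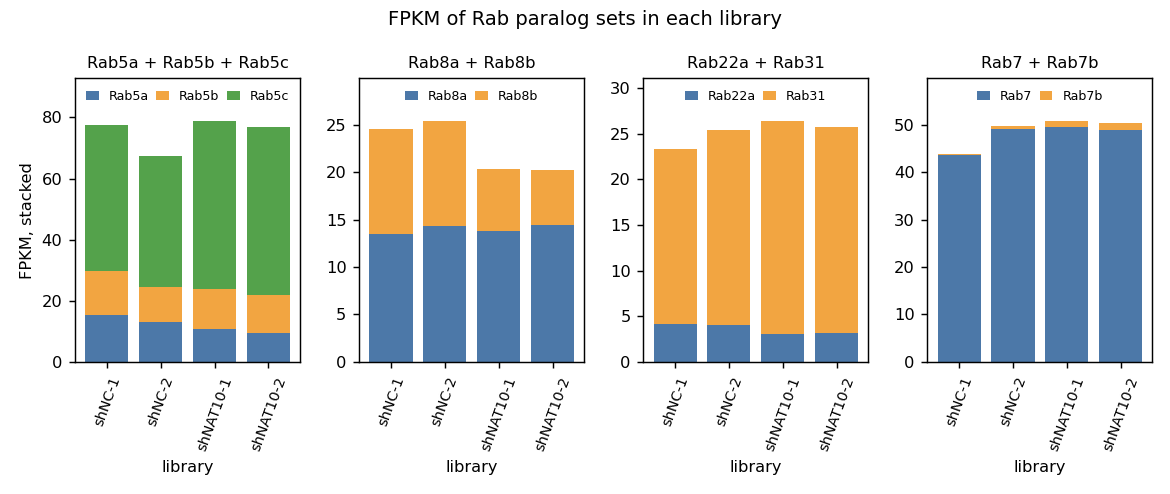
Stacked FPKM of the Rab5, Rab8, Rab22 and Rab7 paralog sets in each of the 4 libraries. *Rab5a* and *Rab8b* take a smaller part of their columns in shNAT10 than in shNC, whereas the Rab5 column as a whole, at 67.3 to 78.9 FPKM, overlaps between the groups and the Rab8 column does not.

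The late endosome and lysosome Rabs steer cargo to breakdown or back to the Golgi. Of 10 members, 8 were tested and 3 were higher (37.5%, beside 9.48% of protein-coding genes). As many as 0 were lower by limma (beside 8.47%) or limma-voom (beside 1529 of 12828 genes), each share under 1 gene in this list. By limma 5 were not called, and the median log2 fold change was 0.20, with 7 of the 8 above 0. *Rab34*, which positions lysosomes and takes part in forming cilia, was at 5.93 and 7.17 FPKM in shNC and at 10.6 and 10.97 FPKM in shNAT10. It rose in both knockdown libraries by more than either group varied (0.72, standard error 0.13; p = 0.00366, exact permutation p = 0.3333, adjusted p = 0.121 by limma; adjusted p = 0.00500 by limma-voom), though the call was lost without shNAT10-1 (0.74) or shNAT10-2 (0.70). *Rab7b*, which returns cargo from late endosomes to the Golgi, was at 0.221 and 0.528 FPKM in shNC and at 1.29 and 1.55 FPKM in shNAT10 (1.76, standard error 0.41; p = 0.00956, exact permutation p = 0.3333, adjusted p = 0.169 by limma). This was the largest rise among the members, on 226 fragments in all, and its shNC libraries differed more than its shNAT10 libraries. With 1 FPKM added in place of 0.1 the log2 fold change was 0.82, and with 0.01 it was 2.02, called in both. The value was 1.27 without shNC-1 and 2.24 without shNC-2, and the call was lost without shNAT10-1 (1.88) or shNAT10-2 (1.63). *Rab7*, the abundant paralog that matures late endosomes, was at 43.6 and 49.3 FPKM in shNC and at 49.6 and 48.9 FPKM in shNAT10 and was not called (0.09). The *Rab7* to *Rab7b* ratio was 197 and 93.2 in shNC and 38.4 and 31.5 in shNAT10 (exact permutation p = 0.3333).

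*Rab29*, a partner of the kinase LRRK2 at the Golgi and on lysosomes, was at 0.406 and 1.15 FPKM in shNC and at 2.28 and 1.73 FPKM in shNAT10 (1.39, standard error 0.49; adjusted p = 0.272 by limma). With 108 fragments it was the least covered of the called members. With 1 FPKM added in place of 0.1 its log2 fold change was 0.78, and with 0.01 it was 1.53, called in both. Leaving out shNC-1 ended the call and brought the value to 0.74, and leaving out shNC-2 raised it to 2.05, so the size rests on the controls, and the call was also lost without shNAT10-1 (1.21) or shNAT10-2 (1.58). *Rab7b* and *Rab29* are neighbours on the plus strand of chromosome 1 of GRCm38, at 131688695 to 131715439 and at 131867224 to 131872887, 151.785 kb apart. Of the 3 protein-coding genes between them, *Slc26a9* and *Pm20d1* were at or near 0 and *Slc41a1* was tested and not called (-0.15). *Rab38* and *Rab32*, which build lysosome-related organelles such as melanosomes, were above their controls in both knockdown libraries without being called (0.18 for *Rab38*, at 31.8 and 30.6 against 37.6 and 33.1 FPKM). Leaving out a library gave 0.085 to 0.27 for *Rab38*. *Rab24*, linked to autophagy, shares 62.4% of its exon length with *Prelid1* on the opposite strand, which was called lower (-0.32), and was itself not called.

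The Rabs of the ER and the Golgi, which carry newly made proteins, held a single call by limma, while limma-voom also called *Rab30* higher (0.131 to 0.453 FPKM over the libraries). Of 11 members, 10 were tested, 1 was lower by limma (10% of them, beside 8.47% of protein-coding genes) and 9 were not called, with a median log2 fold change of -0.01. The call was *Rab6a*, the Rab of retrograde transport through the Golgi, at 28.0 and 27.4 FPKM in shNC and at 23.5 and 21.2 FPKM in shNAT10 (-0.31, standard error 0.09; adjusted p = 0.233 by limma). The 2 groups stood apart, but the call was lost without shNC-1 (-0.29), shNC-2 (-0.32) or shNAT10-2 (-0.24), and 19.0% of its exon length is shared with *Mrpl48* on the opposite strand, which was also called lower (-0.39). *Rab2a*, needed between the ER and the Golgi, was the steadiest of the abundant members at 38.9 to 39.4 FPKM over the 4 libraries (0.01, 95% interval -0.20 to 0.21). *Rab1b*, which opens the way from the ER to the Golgi, was at 37.9 and 42.4 FPKM in shNC and at 42.5 and 48.3 FPKM in shNAT10 (0.18, and 0.083 to 0.27 when a library was left out). *Rab18*, known from lipid droplets and the ER, was at 34.8 and 44.7 against 40.7 and 36.6 FPKM (-0.03). Neither was called.

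The Rabs of regulated secretion include *Rab27b*, which docks secretory granules and takes part in the release of exosomes. Of 9 members, 8 were tested and 0 were called by limma (beside 17.9% of protein-coding genes), with 0 at an unadjusted p under 0.05, while limma-voom called 2 lower (*Rab27a* and *Rab27b*) by the same fold and p limits (beside 25.2%). *Rab27b*, on chromosome 18, was at 26.6 and 31.2 FPKM in shNC and at 24.2 and 23.3 FPKM in shNAT10. Both knockdown libraries were below both controls, but the controls differed from each other by more than the nearer pair across the groups. The log2 fold change was -0.28 (95% interval -0.57 to 0.02; p = 0.0588, exact permutation p = 0.3333, adjusted p = 0.321 by limma; adjusted p = 0.0884 by limma-voom). It was -0.39 and called without shNC-1, and -0.16 and not called without shNC-2. *Rab27a*, the scarcer paralog that docks granules and melanosomes, was at 1.25 and 1.65 FPKM in shNC and at 1.01 and 0.891 FPKM in shNAT10 (-0.55, adjusted p = 0.348 by limma). *Rab27b* made up between 94.98% and 96.3% of the summed Rab27 FPKM in every library. *Rab37*, *Rab44* and *Rab3d*, further Rabs of secretory granules, overlapped between the groups, with log2 fold changes of -0.02, 0.15 and -0.18. *Rab3a*, the Rab of synaptic vesicles, was at 0.803 and 0.908 against 1.18 and 1.49 FPKM and was not called (0.58, adjusted p = 0.323 by limma). Without the filter on low values or without the mean-variance trend, limma called *Rab3a*.

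The 9 Rabs outside these roles had 6 tested members, and 0 of them were called by limma (beside 17.9% of protein-coding genes), with 0 at an unadjusted p under 0.05 and 1 (*Rab39b*) lower by limma-voom (beside 25.2% called). *Rab39b*, at 0.626 and 0.495 FPKM in shNC and at 0.258 and 0.249 FPKM in shNAT10, had 69 fragments in all and stood at -0.90 on the log2 scale (adjusted p = 0.316 by limma). Limma also called *Rab39b* with 0.01 in place of 0.1 FPKM added, without the filter on low values, without the mean-variance trend or under quantile normalization. *Rab28*, at 17.4 to 20.1 FPKM, was the most abundant of them.

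**Figure D3:**
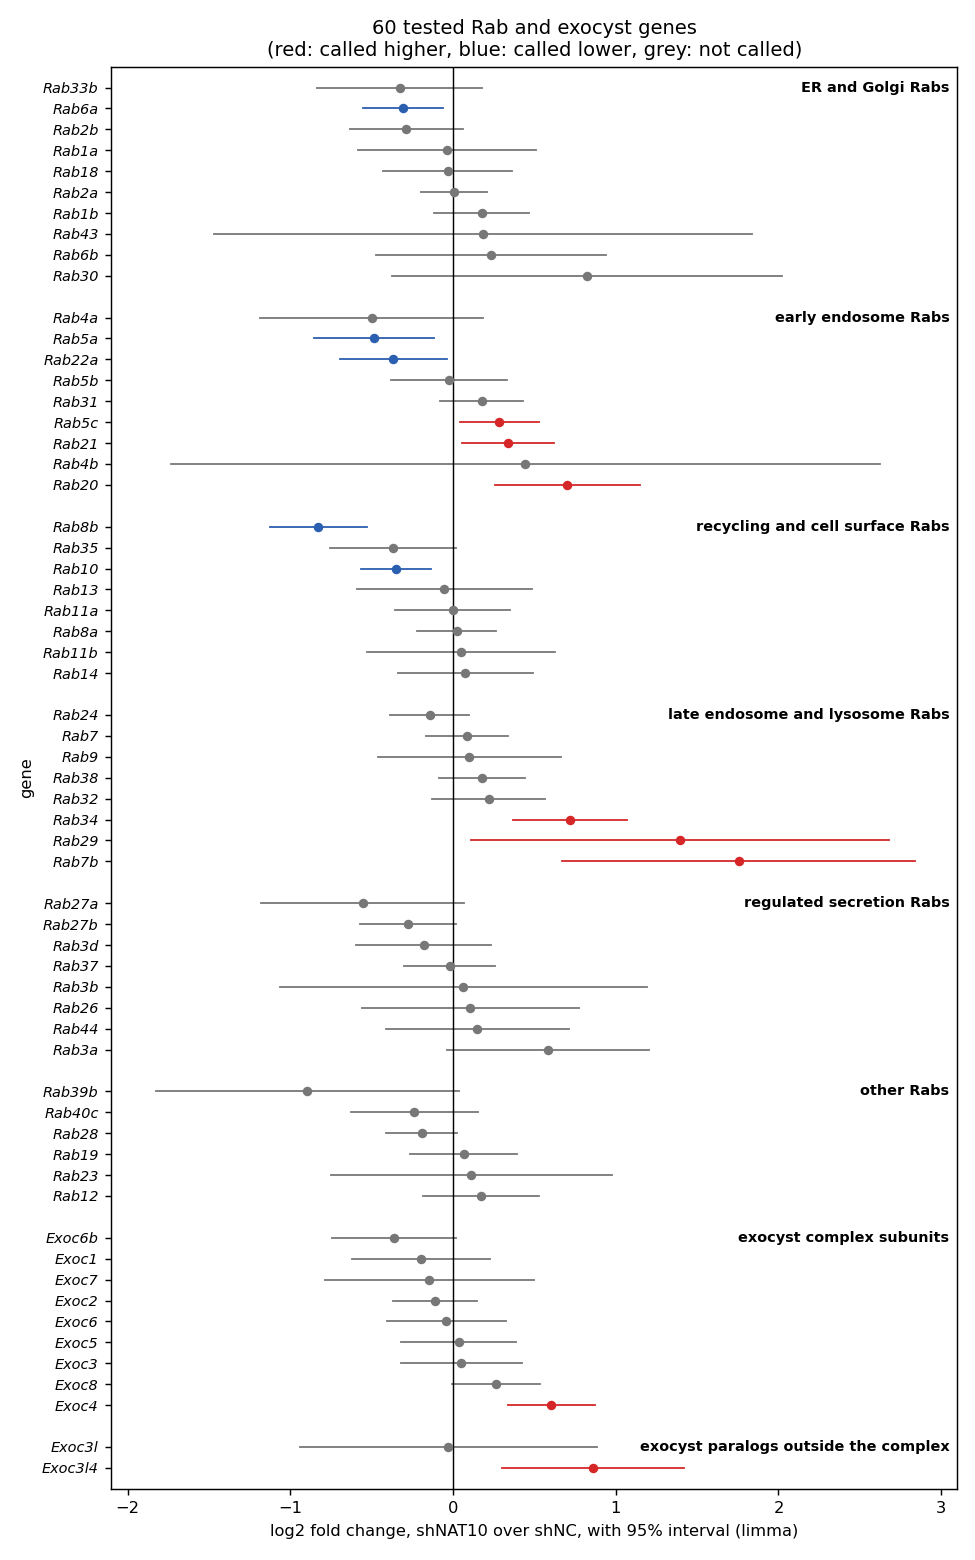
Log2 fold change of shNAT10 over shNC with its 95% interval by limma for the 60 tested members, arranged by role, with calls in red (higher) and blue (lower). The late endosome and lysosome Rabs hold 3 higher calls and no lower call, the early endosome Rabs hold calls on both sides, and the intervals are widest for genes of low level such as *Rab4b*, *Rab43* and *Rab29*.

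The subunits of the exocyst held a single call by limma. Of the 9 subunit genes, counting the paralogs *Exoc6* and *Exoc6b* apart, 1 was higher (11.1%, beside 9.48% of protein-coding genes), 0 were lower (beside 8.47%) and 8 were not called by limma, with a median log2 fold change of -0.04. No subunit apart from *Exoc4* had an unadjusted p under 0.05 by limma, and limma-voom called 1 lower, *Exoc6b*. *Exoc4*, the subunit also known as SEC8, was at 5.42 and 5.35 FPKM in shNC and at 8.24 and 8.24 FPKM in shNAT10. Replicates were almost equal in both groups, and the gene was 52.0% higher in shNAT10 (0.60, standard error 0.10; p = 0.00259, exact permutation p = 0.3333, adjusted p = 0.106 by limma; adjusted p = 0.000609 by limma-voom). *Exoc4* was called under each of the 14 alternatives run, with 0.60 to 0.61 when a library was left out. It lies on the plus strand of chromosome 6 of GRCm38 from 33249085 to 33973979.

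*Exoc6b* lies on the same chromosome, on the minus strand from 84618487 to 85069513, and was at 4.87 and 5.80 FPKM in shNC and at 3.95 and 4.28 FPKM in shNAT10. The groups did not overlap, and the log2 fold change was -0.36 (95% interval -0.74 to 0.02; p = 0.0578, exact permutation p = 0.3333, adjusted p = 0.319 by limma; adjusted p = 0.0672 by limma-voom). It was -0.49 and called without shNC-1 and -0.24 and not called without shNC-2. *Exoc6*, the more abundant paralog, overlapped between the groups (-0.04, 95% interval -0.40 to 0.32).

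The other subunits had log2 fold changes of -0.20 for *Exoc1*, -0.11 for *Exoc2*, 0.05 for *Exoc3*, 0.03 for *Exoc5*, -0.15 for *Exoc7* and 0.26 for *Exoc8*. *Exoc8*, a target of Ral GTPases on the exocyst, was at 7.98 and 7.60 FPKM in shNC and at 9.06 and 9.68 FPKM in shNAT10, and came nearest to a call (adjusted p = 0.315 by limma). *Exoc1* and *Exoc2* lay below their controls in both knockdown libraries. *Exoc3*, *Exoc5* and *Exoc7* overlapped between the groups. Outside the complex, *Exoc3l4*, a paralog of *Exoc3*, was at 0.799 and 0.731 FPKM in shNC and at 1.40 and 1.55 FPKM in shNAT10 (0.86, standard error 0.21; adjusted p = 0.182 by limma; adjusted p = 0.0194 by limma-voom). That call was lost without shNC-2 (0.81), shNAT10-1 (0.93) or shNAT10-2 (0.79). With 1 FPKM added in place of 0.1 the log2 fold change of *Exoc3l4* was 0.49, and with 0.01 it was 0.94, called in both. The antisense gene *Gm10425* covers 15.7% of the exon length of *Exoc3l4* and was also called higher (0.82). *Exoc3l* overlapped between the groups (-0.03).

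*Rab8b* and *Exoc4* were the calls that no alternative ended, and the stretches before their starts are shown for that reason, marked and sourced like those of *Rab5a* and *Rab5c*. For *Exoc4* the last 43 bases before the RefSeq start lie inside the GENCODE gene and were left out.
Rab8b, chr9:66919706-66919955, minus strand: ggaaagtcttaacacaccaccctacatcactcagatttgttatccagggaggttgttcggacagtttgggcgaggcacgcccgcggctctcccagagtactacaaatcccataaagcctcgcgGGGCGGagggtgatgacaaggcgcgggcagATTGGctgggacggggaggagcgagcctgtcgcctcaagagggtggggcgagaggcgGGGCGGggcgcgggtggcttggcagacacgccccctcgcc
Exoc4, chr6:33248878-33249084, plus strand: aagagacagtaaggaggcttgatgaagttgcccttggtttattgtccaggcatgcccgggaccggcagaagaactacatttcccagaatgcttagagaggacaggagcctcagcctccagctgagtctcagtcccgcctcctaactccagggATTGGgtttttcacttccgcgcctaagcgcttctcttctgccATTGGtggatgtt
The *Rab8b* stretch held 2 GC boxes and 1 CCAAT box, and the *Exoc4* stretch held 2 CCAAT boxes and no GC box. Over the family, a promoter was matched for 49 of the 60 tested members and for 12 of the 13 called. A CCAAT box (CCAAT or its reverse) stood in 5 of 5 promoters of members called lower, in 2 of 7 of those called higher (*Exoc4* and *Rab5c*) and in 36.8% of the promoters of protein-coding genes tested. A GC box stood in 4 of the 5, in 3 of the 7 and in 58.8%. These counts are small and describe letters in a window.

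Because the product of *Nat10* writes ac4C, for which the paper names the motif CXXCXXCX, the coding sequences of the members were searched for it, written CNNCNNCN with N for any base. The longest coding sequence per gene in GENCODE M21 was read. The motif stood in all 60 tested members and in 99.6% of 12768 protein-coding genes tested, so its presence does not set the members apart. Its median was 17.5 per kb in the members and 23.5 per kb in those genes. Members called higher had a median of 21.3 per kb, those called lower 16.7 per kb and those not called 16.8 per kb. The median share of C in the sequence went in the same order, at 25.4% for those called higher, 19.8% for those called lower and 25.9% for all protein-coding genes. The longest run of the repeat in 5 of the called members, picked from the 7 with an adjusted p under 0.05 by limma-voom after their values were seen, is shown with its C positions in capitals (GRCm38, coding strand).
Rab8b, chr9:66919572-66919601, minus strand: gctgctCatCggCgaCtcCggCgttggcaa
Rab5a, chr17:53500388-53500417, plus strand: tatgcagatgaCaaCagCttattatttatg
Rab10, chr12:3256946-3256975, minus strand: catcacaacCtcCtaCtaCagaggagcaat
Exoc4, chr6:33277352-33277381, plus strand: aagcaCtaCctCagCgcCacCgaCatgctg
Rab34, chr11:78189603-78189632, plus strand: caaagaCttCcaCccCcgCgtCacttgcgc
The run counted 6 C in *Rab8b*, 3 in *Rab5a* and 4 in *Rab10*, which were lower, and 7 in *Exoc4* and 6 in *Rab34*, which were higher. Over the 13 called members the count ran from 4 to 7 in those called higher and from 3 to 6 in those called lower, so the directions overlapped. The letters do not show that a site was acetylated, which these libraries do not measure.

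The genes that act on Rabs were taken from lists of GEFs, GAPs, effectors, prenylation and extraction factors and exocyst-binding GTPases. Of 150 such genes in the table, 138 were tested, 5 were higher (3.62%, beside 9.48% of protein-coding genes), 21 were lower (15.2%, beside 8.47%) and 112 were not called, with a median log2 fold change of -0.09. The count of lower genes was 11 without shNC-1, 8 without shNAT10-1 and 10 without shNAT10-2, and that of higher genes 3 and 1 without the respective shNAT10 library. Among 49 GEFs tested, 3 were higher and 7 lower; among 38 GAPs, 1 and 6; among 39 effectors, 1 and 5. Of the 7 genes for prenylation and membrane extraction 2 were lower, and of 5 exocyst-binding GTPases 1 was lower, *Ralb* (-0.30). In either list 0 were higher by limma (beside 9.48%) or limma-voom (beside 1701 of 12828 genes).

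*Tbc1d2*, a GAP for Rab7, showed the largest fall of these lists among genes at 1 FPKM or more. It was at 10.3 and 9.69 FPKM in shNC and at 4.68 and 4.63 FPKM in shNAT10 (-1.08, standard error 0.10; adjusted p = 0.0507 by limma). *Rabep2*, a Rab5 effector, followed with 2.83 and 2.64 against 1.47 and 1.59 FPKM (-0.80, adjusted p = 0.132 by limma). *Sytl1*, an effector of Rab27, was at 19.1 and 19.8 FPKM in shNC and at 9.90 and 13.2 FPKM in shNAT10 (-0.76, adjusted p = 0.142 by limma). In each of the 3 the groups stood apart. *Rab3il1*, a GEF for Rab8, was at 6.32 and 8.18 against 4.23 and 4.59 FPKM (-0.69), and *Rabggtb*, a subunit of the enzyme that attaches the lipid anchor to Rabs, at 14.9 and 13.0 against 9.94 and 7.52 FPKM (-0.68). Both passed the call. In the other direction, *Rin2*, a GEF for Rab5, was at 0.930 and 0.889 FPKM in shNC and at 1.93 and 1.87 FPKM in shNAT10 (0.99, adjusted p = 0.123 by limma). *Evi5*, a GAP, and *Ankrd27*, a GEF for Rab21, were called higher, with log2 fold changes of 0.40 and 0.34.

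The SNAREs and fusion factors, which complete the docking that Rabs and the exocyst begin, held no higher call by limma or limma-voom. Of 49 genes 46 were tested, 8 were lower (17.4%, beside 8.47% of protein-coding genes), 0 were higher (beside 9.48%) and 38 were not called. Limma-voom called 1701 of 12828 protein-coding genes higher. By limma 10 of the list had an unadjusted p under 0.05, as had 2365 of 12837 protein-coding genes. The median log2 fold change was -0.17, with 33 of the 46 below 0, as were 6338 of the 12837. *Vti1b*, a SNARE of late endosomes, was at 39.5 and 42.4 FPKM in shNC and at 28.3 and 29.8 FPKM in shNAT10 (-0.49, adjusted p = 0.116 by limma). *Bet1l*, *Stx5a*, *Bet1*, *Use1*, *Stx18* and *Sec22b*, which serve the ER and the Golgi, and *Napg*, which helps to take SNARE complexes apart, fell by 0.34 to 0.41 on the log2 scale. The count of lower SNAREs was 3 without shNC-2 or shNAT10-2, 1 without shNAT10-1 and 10 without shNC-1, and it was 1 in a fit without the mean-variance trend.

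**Figure D4:**
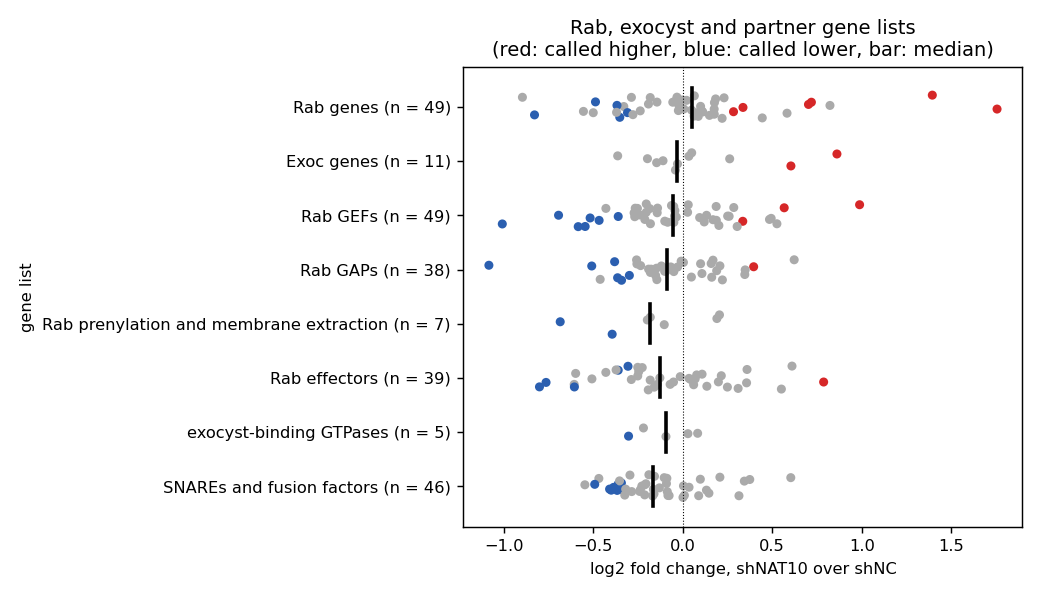
Log2 fold change of each tested gene of the Rab and Exoc families and of the lists of regulators, effectors and SNAREs, with calls in red (higher) and blue (lower) and a bar at the median. The medians run from -0.18 for prenylation and extraction factors to 0.05 for the Rab genes.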

How the data were processed

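RNA of shNC and shNAT10 FGSCs was sequenced, with 2 libraries per group, grouped by the sample labels. The authors aligned reads with HISAT2 and deposited FPKM values per gene, and the submitters' processing notes add cutadapt, DESeq2 and the build mm10. The counting program, its use of strand and the annotation are not given in the sources used here. The methods describe rRNA depletion and the labels an mRNA isolation, so the library type is uncertain. The authors' own fold changes and p-values in the deposited tables were not used.

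Because the values are FPKM and not counts, log2(FPKM + 0.1) of genes averaging 0.1 FPKM or more was tested between the groups in limma 3.58.1 (R 4.3.3), using the mean-variance trend, two-sided and without covariates, with Benjamini-Hochberg adjustment. The scale understates changes of low genes. The fold limit of 1.2 and the p limit of 0.05 are those of the study. Fragments were recovered with GENCODE M21 exon lengths, and 96.3% of values under 50 fragments came within 0.02 of a whole number. They served limma-voom and the statements on depth. A floor of 3 fragments corresponds to 0.196 to 0.255 FPKM for a gene of 1 kb, for counting error only, since PCR copies are not told apart. On simulated data for 19412 genes, 183 of 200 genes changed by a log2 fold of 1 were called, as were 4.65% of unchanged genes. The spread between simulated libraries was set beforehand and not estimated from these data. The changed genes were picked among those with about 50 or more fragments per library. The simulation therefore does not cover smaller changes or genes of few fragments. Python 3.11.15 with pandas 2.3.3, scipy 1.17.1 and matplotlib 3.10.9 was used otherwise. Promoter sequences are RefSeq's, and no motif was tested.

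Members and lists were chosen with earlier results of these data known. Named were all called members, every exocyst subunit, *Rab27b*, the 10 most abundant members and, of the partner lists, up to 5 rises and 5 falls of largest size at a mean of 1 FPKM or more, apart from a gene that is not reported here. Paralogs of named genes and members near the threshold were added after their values were seen.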

Additional observations from a re-analysis of the deposited data

How the results depend on the processing

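Of 14 alternatives, several moved the counts of calls. Without the trend, 2 members and 1 SNARE were lower, and 7 of the 13 calls were lost. By limma-voom 9 members were higher and 10 lower, and 9 regulators were higher and 25 lower. Beside these stood 1701 higher and 1529 lower of 12828 protein-coding genes. The 19 members called in all were the 13 named above with *Exoc6b*, *Rab27a*, *Rab27b*, *Rab30*, *Rab35* and *Rab39b*. Over all genes, 88 had an adjusted p under 0.05 by limma and 1582 by limma-voom. Leaving out a library in turn gave 1 to 8 members higher and 2 to 5 lower, 1 to 6 regulators higher and 8 to 15 lower, and 1 to 10 SNAREs lower. *Nat10* ranged from -1.35 to -0.83 and lost its call without either shNAT10 library. In the same runs values near 0 changed sign: *Exoc3* (-0.063 to 0.16), *Exoc5* (-0.022 to 0.090), *Exoc6* (-0.20 to 0.12), *Exoc7* (-0.32 to 0.029), *Rab7* (-0.000614 to 0.17), *Rab2a* (-0.00357 to 0.016) and *Rab18* (-0.21 to 0.15; 0.00480 under quantile normalization). With the replicate number as a block (replicate block), 7 members were higher and 4 lower, *Rab21* and *Rab22a* losing their calls, but the numbers are shared in name alone, since the deviations of shNC-1 and shNAT10-1 from their group means had r = 0.0071 across 20116 genes. *Rab5c* lost and *Rab27b* gained a call when protein-coding FPKM totals were made equal. No scaling moved the median of all genes by more than 0.1. The causes of these shifts were not tested. *Rab7b* (226 fragments over the 4 libraries), *Rab29* (108) and *Rab39b* (69) rest on few fragments.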
